A study of Homo sapiens with 12 samples.

Results

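The genes described here are the D-type and E-type cyclins, their kinase partners and their inhibitors: CCND1, CCND3, CCNE1, CCNE2, CDK2, CDK4, CDK6, CDKN1A, CDKN1B and CDKN2C. They were chosen by symbol, 10 of the 20114 symbols in the deposited table, and all 10 had enough counts to be among the 13872 genes tested. The cells were T47D, a human breast carcinoma line with progesterone and estrogen receptors. All groups shared an overnight attachment in hormone-depleted medium and then serum starvation, and each was given vehicle or a progestin at 100 pM or 10 nM, for 6 h or 18 h. The compound is not named in the sources used here. Each of the 6 groups of dose and time had 2 libraries, numbered replicate 1 and replicate 3. They are written below as dose and number, such as vehicle 1.

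Cyclins are regulatory subunits that switch on cyclin-dependent kinases. D-type cyclins partner CDK4 and CDK6 and begin the phosphorylation of the retinoblastoma protein in G1, which releases E2F transcription factors, and E-type cyclins with CDK2 complete it and open S phase. The Cip/Kip inhibitors p21 (CDKN1A) and p27 (CDKN1B) block CDK2 complexes, whereas p18 (CDKN2C), of the INK4 family, binds CDK4 and CDK6. In breast epithelium and in breast cancer lines, progestins are known to induce cyclin D1. In breast cancer lines they are also known to drive a round of division followed by arrest with the Cip/Kip inhibitors.

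Total counts were 34204970 to 41373890 per library. Levels are CPM (read counts scaled to library size) after TMM scaling, given by library (replicate 1, then replicate 3) or as mean ± SD (n = 2), and fold changes are log2 ± SE from edgeR's quasi-likelihood test. A gene rose or fell where its Benjamini-Hochberg adjusted p over all tested genes was under 0.05. The labels do not tell whether replicates were separate cultures, and p-values speak only of the spread among these samples, which may be technical. All 9 luminal epithelial markers listed were counted in every library, and their summed level was 11141 to 11803 CPM in vehicle, 10131 to 11612 CPM at 100 pM and 5332 to 7038 CPM at 10 nM. Of these markers 7 fell at 10 nM at 6 h and 7 at 18 h, and 3 fell at 100 pM for 18 h. Their part in the results below was not tested. The 3 basal markers summed to at most 9.04 CPM, the 3 immune markers to at most 3.95 CPM and the endothelial markers to at most 0.927 CPM. COL1A1 gave nearly all of the 66.2 to 114 CPM of the fibroblast list, with COL1A2 at 0 in 5 of the 6 groups. Mitochondrial transcripts took 6.69% to 10.8% of counts, with replicate 3 above replicate 1 at every dose and time.

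The largest set of changes in this group of genes was at 100 pM for 18 h. At that dose 1 of the 10 genes rose at 6 h, where 2.88% of all tested genes rose and 3.48% changed in either direction. At 18 h, 6 rose and 1 fell at 100 pM, where 6.57% of tested genes rose, 3.89% fell and 10.5% changed. At 10 nM, 5 of the 10 rose at 6 h, where 22.6% of tested genes rose and 42.0% changed, and 3 rose at 18 h, where 19.0% rose and 34.1% changed. None of the 10 fell at 10 nM at either time, where 19.4% and 15.2% of tested genes did. These counts depended on the libraries used. With the 18 h libraries alone, the 7 calls at 100 pM for 18 h became 4, where the calls among all tested genes went from 1450 to 653. Leaving out 1 library of a comparison leaves its group with 1. At 100 pM for 18 h and at 10 nM for 6 h, each such fit called fewer of the 10 and fewer of all tested genes. The median log2 fold change of the 10 genes was 0.43 at 100 pM and 0.78 at 10 nM for 6 h, and 1.22 and 0.43 for 18 h. The median over all tested genes was -0.02 and -0.02 at 6 h and -0.03 at 100 pM and under 0.01 in size at 10 nM for 18 h. Both doses of a time were set against the same vehicle libraries. In this fit, which has no term for the replicate number, CCND1 was the only one of the 10 that rose at both doses and both times, and CDK4 was called in none of the 11 comparisons made. A fit with that term called CCNE2, CDKN1A and CDKN1B higher in those 4 comparisons as well. In bulk RNA, a change in the number of cells that hold a transcript and a change in its amount per cell cannot be told apart.

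**Figure D1:**
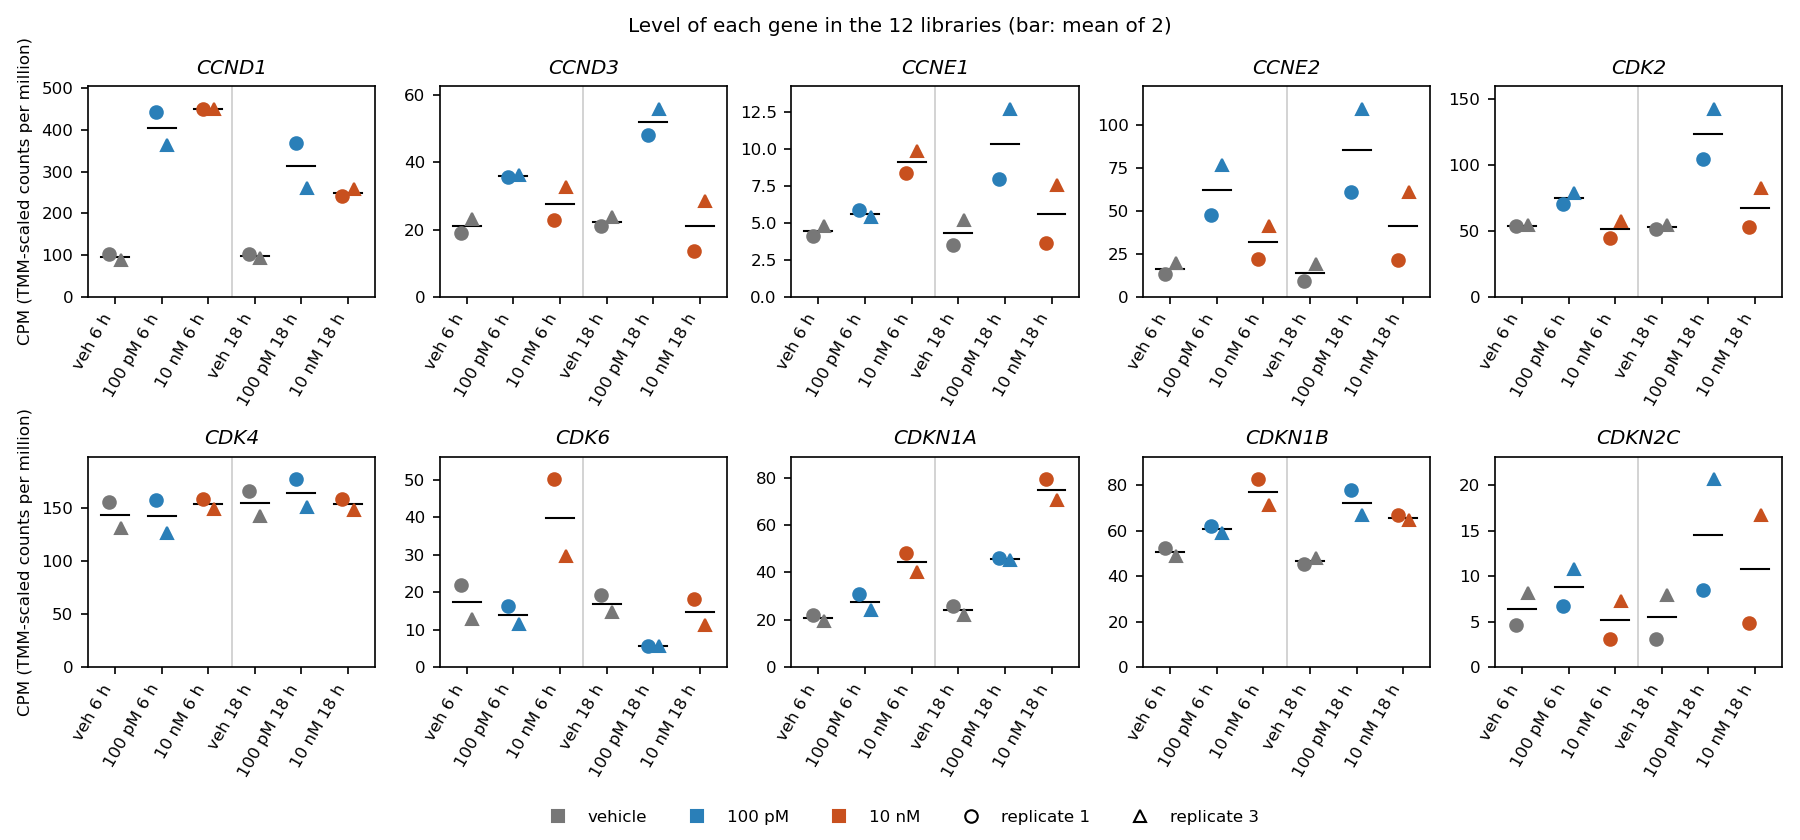
Each panel plots 1 gene, with its CPM in each of the 12 libraries on the y axis and the 6 groups of dose and time on the x axis (circles, replicate 1; triangles, replicate 3; bars, means of 2). CCND1 is 261 to 444 CPM at 100 pM and 242 to 452 CPM at 10 nM against 87.4 to 103 CPM in vehicle, CDK6 reaches its lowest level at 100 pM for 18 h, and CDK4 stays between 127 and 177 CPM.

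CCND1, which encodes cyclin D1, measured 101 and 87.4 CPM in vehicle 1 and vehicle 3 at 6 h. It measured 444 and 365 CPM in the 100 pM libraries and 452 and 452 CPM in the 10 nM libraries. By 18 h its levels were 103 and 93.0 CPM in vehicle, 369 and 261 CPM at 100 pM, and 242 and 257 CPM at 10 nM. Every treated library lay above every vehicle library, and at 18 h the 10 nM libraries lay below both 100 pM libraries. At 6 h the rise was 2.10 ± 0.17 at 100 pM (edgeR adjusted p = 0.000259) and 2.26 ± 0.17 at 10 nM (edgeR adjusted p = 2.24e-05). The 18 h rises were 1.68 ± 0.17 at 100 pM (edgeR adjusted p = 0.000633) and 1.35 ± 0.17 at 10 nM (edgeR adjusted p = 0.000405). These 4 calls were kept in each fit that left out 1 library. From 6 h to 18 h CCND1 fell at 10 nM (-0.86 ± 0.17, edgeR adjusted p = 0.00711), which was also kept, while at 100 pM the difference of -0.36 ± 0.16 was not called.

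The doses were not called apart for CCND1 at 6 h, where 10 nM over 100 pM was 0.16 with a 95% interval of -0.22 to 0.53. At 18 h it was -0.34 (interval -0.71 to 0.04), and this difference was called without 100 pM 3 (-0.56, edgeR adjusted p = 0.0338). The 10 nM effect on CCND1 was smaller at 18 h than at 6 h by -0.91 ± 0.23 (edgeR adjusted p = 0.0414), and by this fit no other of the 10 genes had a 10 nM effect called different between the times, where 10.5% of tested genes were (4.55% up and 5.99% down). That call was lost when any 1 of the 8 libraries was left out (-0.81 to -1.02, adjusted p 0.0724 to 0.143).

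CCND3, which encodes cyclin D3, took another course. Its levels at 6 h were 19.1 and 23.2 CPM in vehicle, 35.6 and 36.4 CPM at 100 pM, and 22.7 and 32.7 CPM at 10 nM. At 18 h they were 21.0 and 23.7 CPM in vehicle, 48.2 and 56.1 CPM at 100 pM, and 13.7 and 28.4 CPM at 10 nM. The 100 pM libraries were above both other groups at each time, and at 18 h the 10 nM libraries spanned the vehicle ones. At 100 pM for 18 h CCND3 rose (1.22 ± 0.30, edgeR adjusted p = 0.0370), and at 10 nM it was -0.09 ± 0.30 from vehicle. Between the doses at 18 h, CCND3 was lower at 10 nM (-1.31 ± 0.30, edgeR adjusted p = 0.0135). The rise was lost without any 1 of its 4 libraries (1.11 to 1.33, adjusted p 0.0830 to 0.194) and in a fit to the 18 h libraries alone (adjusted p = 0.113), and the difference between doses was lost without 100 pM 3 (-1.19, adjusted p = 0.0676).

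CCNE2, which encodes cyclin E2, had the largest fold change of the 10 genes at 100 pM for 18 h. At 6 h it measured 13.0 and 19.8 CPM in vehicle, 47.6 and 76.9 CPM at 100 pM, and 21.9 and 41.4 CPM at 10 nM. The 18 h libraries held 8.98 and 18.9 CPM in vehicle, 61.3 and 109.8 CPM at 100 pM, and 21.5 and 61.3 CPM at 10 nM. At both times each treated library was above both vehicle libraries, and the 10 nM libraries lay between vehicle and 100 pM, with 10 nM 3 of 18 h level with 100 pM 1. Its rise was called at 100 pM for 18 h (2.62 ± 0.61, edgeR adjusted p = 0.0293), while 1.93 ± 0.59 at 100 pM for 6 h (adjusted p = 0.167), 0.95 ± 0.58 at 10 nM for 6 h and 1.57 ± 0.59 at 10 nM for 18 h (adjusted p = 0.0729) were not called. The call was lost without vehicle 1, vehicle 3 or 100 pM 3 (2.14 to 3.25, adjusted p 0.0695 to 0.180) and with the 18 h libraries alone (adjusted p = 0.0893), whereas the 10 nM value at 18 h was called without 10 nM 1 (2.14, adjusted p = 0.0297).

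In all 6 groups CCNE2 was higher in replicate 3 than in replicate 1, by 1.52 to 2.86 times. Within a replicate number the folds over vehicle differed less: at 100 pM for 18 h they were 6.83 in replicate 1 and 5.81 in replicate 3, and at 6 h they were 3.67 and 3.89. At 10 nM they were 1.69 and 2.10 at 6 h, and 2.39 and 3.24 at 18 h. The labels do not say what a replicate number shares.

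CCNE1, which encodes cyclin E1, was a low-count gene, with 125 to 453 reads per library. Its levels at 6 h were 4.10 and 4.82 CPM in vehicle, 5.87 and 5.37 CPM at 100 pM, and 8.39 and 9.87 CPM at 10 nM. At 18 h they were 3.50 and 5.17 CPM in vehicle, 8.00 and 12.8 CPM at 100 pM, and 3.64 and 7.56 CPM at 10 nM. The highest group was thus 10 nM at 6 h and 100 pM at 18 h, with 10 nM overlapping vehicle at 18 h. CCNE1 rose at 10 nM for 6 h (1.03 ± 0.36, edgeR adjusted p = 0.0456), a call lost without any 1 of the 4 libraries (0.91 to 1.16, adjusted p 0.0891 to 0.174). The 1.26 ± 0.36 at 100 pM for 18 h was not called (adjusted p = 0.0610). Neither was 10 nM over 100 pM, at 0.70 at 6 h (95% interval -0.11 to 1.51) or -0.89 at 18 h (-1.70 to -0.08). The first of these was called with the 6 h libraries alone (0.68, adjusted p = 0.0325) and the second without 10 nM 3 (-1.54, adjusted p = 0.0223).

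**Figure D2:**
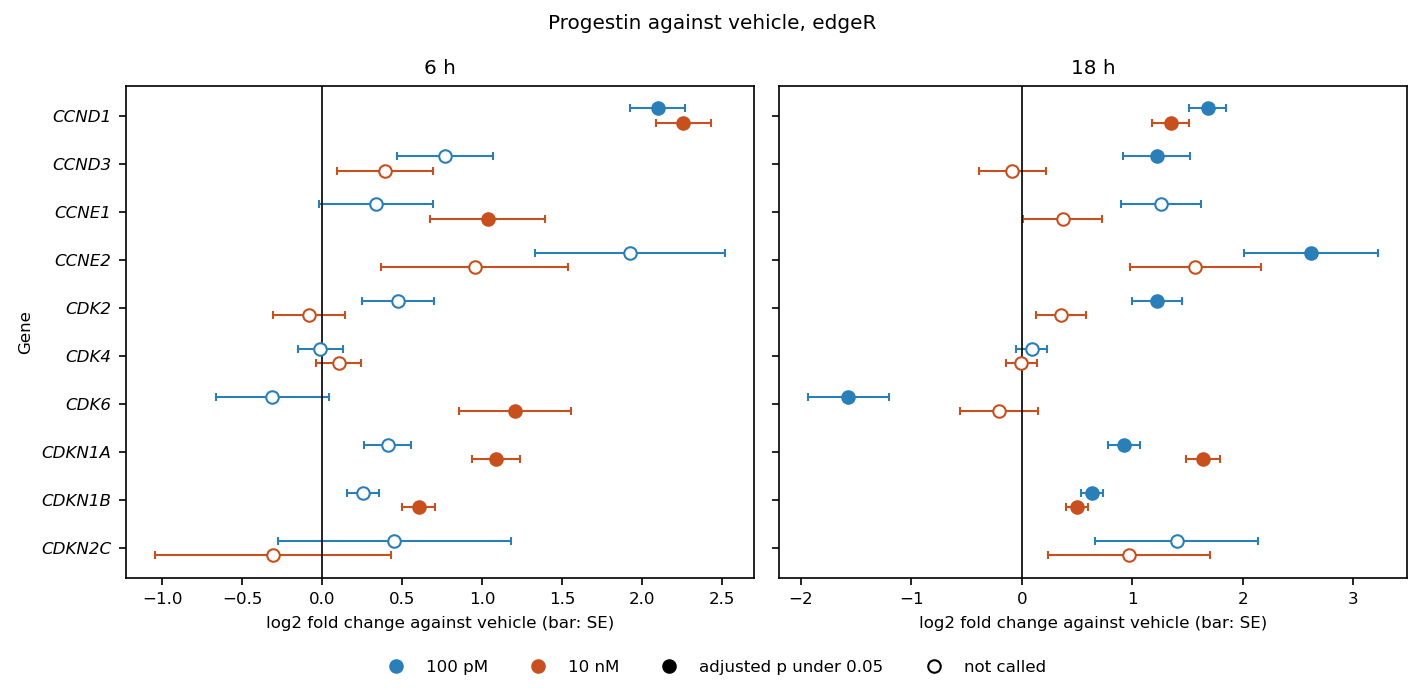
For each gene (y axis) the points give the log2 fold change over vehicle of the same time (x axis), with SE bars, at 100 pM (blue) and 10 nM (orange); filled points passed the adjusted p threshold. At 6 h CCND1 is filled at both doses and the other 4 filled points are at 10 nM, whereas at 18 h 7 points are filled at 100 pM, among them CDK6 at -1.57, and 3 at 10 nM.

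Among the kinases, CDK4 had overlapping levels in all groups, 127 to 177 CPM over the 12 libraries. Its log2 fold changes against vehicle were -0.01 to 0.10, each with an SE of 0.14. CDK2, the partner of cyclin E, measured 53.5 and 54.5 CPM in vehicle at 6 h, 70.7 and 79.0 CPM at 100 pM, and 44.3 and 57.8 CPM at 10 nM. The 18 h levels were 51.6 and 54.2 CPM in vehicle, 104 and 143 CPM at 100 pM, and 52.5 and 82.7 CPM at 10 nM. As for CCND3, the 100 pM libraries were the highest at each time, and the 10 nM libraries overlapped vehicle. At 100 pM for 18 h CDK2 rose (1.22 ± 0.23, edgeR adjusted p = 0.0118) and was lower at 10 nM than at 100 pM at 18 h (-0.87 ± 0.23, edgeR adjusted p = 0.0217). The rise was lost without vehicle 1, vehicle 3 or 100 pM 3 (0.98 to 1.26, adjusted p 0.0664 to 0.0867) and with the 18 h libraries alone (adjusted p = 0.0604), and the difference between doses without 100 pM 3 (-0.63) or 10 nM 1 (-0.58) and with the 18 h libraries alone (-0.89), with adjusted p 0.0642 to 0.135. At 6 h the difference between doses was -0.55 ± 0.23 and was not called (adjusted p = 0.0862), but it was with the 6 h libraries alone (-0.57, adjusted p = 0.0299).

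CDK6, the other partner of the D-type cyclins, changed in opposite directions at the doses and times. At 6 h it measured 21.9 and 12.8 CPM in vehicle, 16.4 and 11.5 CPM at 100 pM, and 50.3 and 29.7 CPM at 10 nM. The 18 h levels were 19.2 and 14.8 CPM in vehicle, 5.71 and 5.71 CPM at 100 pM, and 18.1 and 11.4 CPM at 10 nM. Both 10 nM libraries at 6 h were above every other library, and both 100 pM libraries at 18 h were below every other library. CDK6 rose at 10 nM for 6 h (1.20 ± 0.35, edgeR adjusted p = 0.0235) and fell at 100 pM for 18 h (-1.57 ± 0.37, edgeR adjusted p = 0.0292). The within-number folds at 10 nM for 6 h were 2.30 and 2.31, and those at 100 pM for 18 h were 0.298 and 0.386. It was higher at 10 nM than at 100 pM at 6 h (1.52 ± 0.35, edgeR adjusted p = 0.0100) and at 18 h (1.37 ± 0.37, edgeR adjusted p = 0.0247). From 6 h to 18 h it fell at 10 nM (-1.44 ± 0.35, edgeR adjusted p = 0.0194), and at 100 pM it was -1.29 ± 0.36 (adjusted p = 0.132).

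Each call of CDK6 was lost in some fits with 1 library fewer, while its direction was kept. The rise at 10 nM for 6 h was lost without vehicle 3 (0.87, adjusted p = 0.143) or 10 nM 1 (0.77, adjusted p = 0.165), and the fall at 100 pM for 18 h without any 1 of its 4 libraries (-1.37 to -1.75, adjusted p 0.0693 to 0.149). Without either 100 pM library that fall was -1.57, as with both. The difference between doses was lost at 6 h without 100 pM 3 or 10 nM 1 (1.30 and 1.09, adjusted p 0.0706 and 0.0720), and at 18 h without 100 pM 1, 100 pM 3 or 10 nM 1 (0.99 to 1.37, adjusted p 0.0967 to 0.151). The fall with time at 10 nM was lost without 10 nM 1 of 6 h (-1.01, adjusted p = 0.125) or 10 nM 3 of 18 h (-1.15, adjusted p = 0.112).

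The inhibitors of the Cip/Kip family rose, and both were called higher at 10 nM than at 100 pM at 6 h. CDKN1A, which encodes p21, measured 22.2 and 19.5 CPM in vehicle at 6 h, 31.0 and 24.3 CPM at 100 pM, and 48.3 and 40.2 CPM at 10 nM. Its 18 h levels were 25.9 and 22.2 CPM in vehicle, 46.1 and 45.2 CPM at 100 pM, and 79.5 and 70.4 CPM at 10 nM. At both times vehicle, 100 pM and 10 nM formed separate steps, with no overlap between them. Most tested genes likewise had no overlap between 10 nM and vehicle (71.4% at 6 h and 65.8% at 18 h). Between 100 pM and vehicle the share was 36.8% at 6 h and 52.1% at 18 h. Between the doses at 6 h, 4723 of 13872 tested genes were higher in both 10 nM libraries than in both 100 pM libraries, and 4787 lower. At 18 h, 4349 were higher and 3977 lower. The same backgrounds apply to the other genes here whose libraries did not overlap between groups of 1 time. CDKN1A rose at 10 nM for 6 h (1.08 ± 0.15, edgeR adjusted p = 0.000518), at 100 pM for 18 h (0.92 ± 0.15, edgeR adjusted p = 0.00587) and at 10 nM for 18 h (1.64 ± 0.15, edgeR adjusted p = 7.12e-05). At 100 pM for 6 h it was 0.41 ± 0.15 and was not called (adjusted p = 0.275). 10 nM exceeded 100 pM by 0.68 ± 0.15 at 6 h (edgeR adjusted p = 0.00698) and 0.72 ± 0.15 at 18 h (edgeR adjusted p = 0.00730), and from 6 h to 18 h CDKN1A rose at 10 nM by 0.76 ± 0.15 (edgeR adjusted p = 0.00694). Without vehicle 3 the rise at 100 pM for 18 h was 0.82 (adjusted p = 0.0515), and without 10 nM 1 the differences between doses were 0.54 (adjusted p = 0.0528) and 0.63 (adjusted p = 0.0509).

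CDKN1B, which encodes p27, measured 52.5 and 49.0 CPM in vehicle at 6 h, 62.0 and 59.2 CPM at 100 pM, and 82.7 and 71.3 CPM at 10 nM. At 18 h it was 45.3 and 47.8 CPM in vehicle, 77.8 and 66.8 CPM at 100 pM, and 66.8 and 64.7 CPM at 10 nM. All treated libraries were above the vehicle libraries, with the highest values at 10 nM at 6 h and at 100 pM at 18 h. It rose at 10 nM for 6 h (0.60 ± 0.10, edgeR adjusted p = 0.00151) and at 18 h at both 100 pM (0.64 ± 0.10, edgeR adjusted p = 0.00558) and 10 nM (0.50 ± 0.10, edgeR adjusted p = 0.00527), and was not called at 100 pM for 6 h (0.26 ± 0.10). 10 nM exceeded 100 pM at 6 h (0.34 ± 0.10, edgeR adjusted p = 0.0256). At 18 h the difference was -0.14, with a 95% interval of -0.37 to 0.09. The rise at 100 pM for 18 h was lost without vehicle 1 (0.60, adjusted p = 0.0546), and the difference at 6 h without 100 pM 1, 100 pM 3 or 10 nM 1 (0.23 to 0.37, adjusted p 0.0609 to 0.169) and with the 6 h libraries alone (0.32, adjusted p = 0.0555).

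CDKN2C, which encodes the INK4 inhibitor p18, had 110 to 734 reads per library and was called in no comparison by the fit without the replicate number. At 6 h it measured 4.68 and 8.12 CPM in vehicle, 6.71 and 10.8 CPM at 100 pM, and 3.04 and 7.28 CPM at 10 nM. Its 18 h levels were 3.08 and 7.93 CPM in vehicle, 8.46 and 20.7 CPM at 100 pM, and 4.85 and 16.7 CPM at 10 nM. The 100 pM libraries of 18 h were the only treated pair that did not overlap vehicle. Its log2 fold change was 1.40 ± 0.74 at 100 pM and 0.97 ± 0.74 at 10 nM for 18 h. Replicate 3 exceeded replicate 1 in all 6 groups, by 1.61 to 3.45 times. Within a replicate number the fold at 100 pM for 18 h was 2.75 and 2.60, and at 10 nM for 6 h it was 0.648 and 0.897.

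The stretch just before the start of transcription is shown for 3 genes that differed in their order of doses: CDK6, and the inhibitors CDKN1A and CDKN1B. Sequences were taken from a RefSeq promoter table (GRCh38.p14), in which 7 of the 10 genes matched (all but CCND1, CCNE2 and CDK2). Each run is the 250 bases upstream of the start, 5′ to 3′ on the gene's own strand, from chr7:92836574-92836823 (minus strand), chr6:36678464-36678713 (plus strand) and chr12:12717118-12717367 (plus strand). Where the table held more than 1 start, the first was used. Capitals mark matches to the GC box GGGCGG, the letters bound by SP1 and KLF factors, on either strand, and overlapping matches run together.
CDK6 promoter: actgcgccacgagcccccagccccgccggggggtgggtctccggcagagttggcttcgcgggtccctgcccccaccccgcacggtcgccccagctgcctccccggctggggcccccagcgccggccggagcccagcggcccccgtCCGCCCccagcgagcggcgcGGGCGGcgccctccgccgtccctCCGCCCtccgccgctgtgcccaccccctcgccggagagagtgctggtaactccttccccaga
CDKN1A promoter: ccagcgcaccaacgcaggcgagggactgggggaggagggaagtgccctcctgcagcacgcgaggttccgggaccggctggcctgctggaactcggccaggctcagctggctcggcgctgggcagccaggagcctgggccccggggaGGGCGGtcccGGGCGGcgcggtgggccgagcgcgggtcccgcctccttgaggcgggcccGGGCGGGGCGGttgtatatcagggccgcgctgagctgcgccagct
CDKN1B promoter: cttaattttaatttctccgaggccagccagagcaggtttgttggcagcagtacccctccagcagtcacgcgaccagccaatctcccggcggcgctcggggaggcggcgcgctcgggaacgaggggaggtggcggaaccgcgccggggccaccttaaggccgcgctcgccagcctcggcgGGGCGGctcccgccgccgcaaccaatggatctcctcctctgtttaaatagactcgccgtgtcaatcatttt

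In these windows the GC box was found at 4 positions in CDKN1A, 3 in CDK6 and 1 in CDKN1B. Of the 7 genes matched, 6 held it, and of 27305 promoters of the same length 42.3% did. The E-box CACGTG was in 2 of the 7 (CDK4 and CDKN2C) and in 6.49% of promoters. None of the 7 held the steroid receptor half-site AGAACA, the E2F-like TTTNNCGC, the AP-1 letters TGANTCA or TATAAA, which 12.4%, 5.93%, 6.60% and 11.1% of promoters held. Both strands were searched for each motif. A match or its absence describes these letters in this window only.

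Without a term for the replicate number, the doses were called apart in 3 of the 10 genes at 6 h, each higher at 10 nM, where 20.1% of tested genes were higher, 16.8% lower and 37.0% either. These were CDK6, CDKN1A and CDKN1B. Without 100 pM 3 or 10 nM 1 of 6 h, fewer of the 10 and fewer of all tested genes were called. At 18 h, 2 were higher at 10 nM (CDK6 and CDKN1A) and 2 lower (CCND3 and CDK2), where 14.8% of tested genes were higher, 11.4% lower and 26.2% either. Fewer of the 10 and fewer of all tested genes were also called at 18 h without 100 pM 3 or 10 nM 1 of that time. For CCNE2 the difference was not called at either time, and its interval was wide, -2.29 to 0.34 at 6 h and -2.36 to 0.26 at 18 h. For CDK4 the interval was -0.20 to 0.43 at 6 h and -0.42 to 0.22 at 18 h. With a term for the replicate number, CCNE2 was called lower at 10 nM than at 100 pM at both times. It was -1.01 at 6 h (edgeR adjusted p = 0.000877) and -1.13 at 18 h (edgeR adjusted p = 0.000502).

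**Figure D3:**
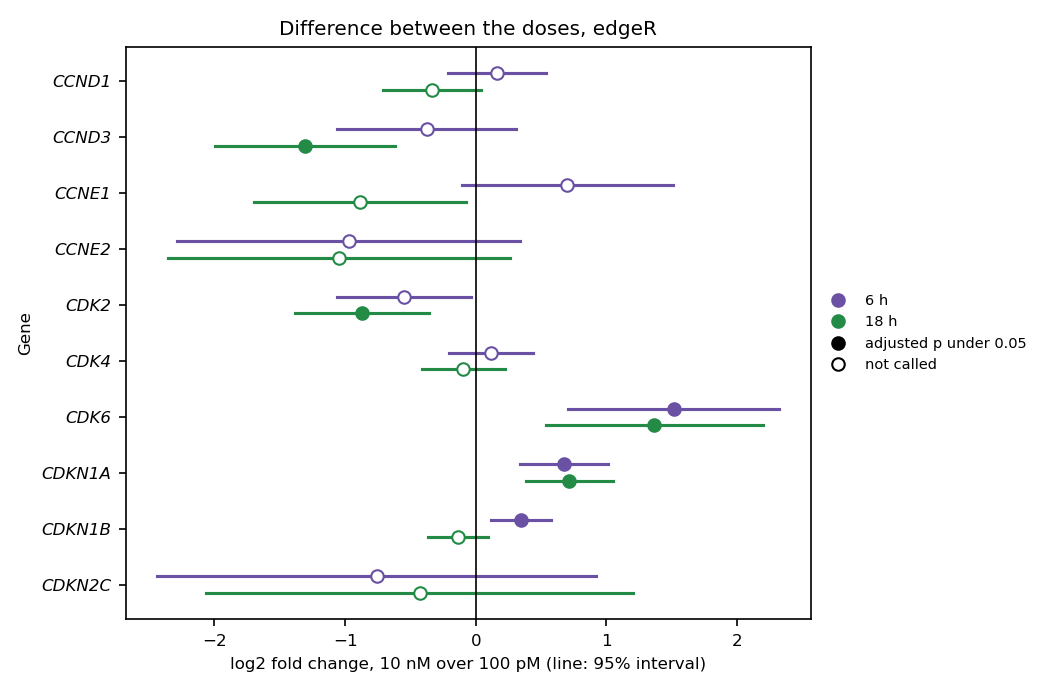
The log2 fold change of 10 nM over 100 pM (x axis) is drawn for each gene (y axis) with its 95% interval, at 6 h (purple) and 18 h (green), and filled points passed the adjusted p threshold. CDK6 and CDKN1A lie to the right of 0 at both times, CCND3 and CDK2 to the left at 18 h, and the intervals of CCNE2 and CDKN2C cross 0 at both times.

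In vehicle, edgeR called 0 of the 10 genes and 0 of the 13872 tested between 18 h and 6 h (0%), with 0 and 178 at an unadjusted p under 0.05. DESeq2 called 0 and 2. At 100 pM, edgeR called 0 of the 10, where 1.18% of tested genes were called (0.526% up and 0.656% down), with 5 of the 10 at an unadjusted p under 0.05. DESeq2 called 3 of them there: CDK2 (0.75), CDK6 (-1.26) and CDKN1A (0.75), with adjusted p 0.000616 to 0.0384. At 10 nM, CDKN1A rose and CCND1 and CDK6 fell from 6 h to 18 h, where 11.4% of tested genes rose, 13.1% fell and 24.5% did either. Without 10 nM 3 of 18 h, CCND3 (-1.01, adjusted p = 0.0320) and CCNE1 (-1.33, adjusted p = 0.0495) were also called lower, against -0.40 and -0.70 with it. The 100 pM effect differed between the times in 0 of the 10 genes by edgeR, 4 of them at an unadjusted p under 0.05 and 0 by DESeq2, where 0.0144% of tested genes did.

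Levels of different genes were compared per kb of exon, with exon lengths from GENCODE 29, which is on GRCh38 and need not be the gene models behind the counts. CCND1 was at 21.4 ± 2.25 CPM per kb in vehicle at 6 h (SD, n = 2) and CCND3 at 5.37 ± 0.745 CPM per kb. Ratios within a library follow with the lower of a group's 2 values first. That of CCND1 to CCND3 was 3.37 and 4.76 in vehicle, 8.97 and 11.1 at 100 pM, and 12.4 and 17.8 at 10 nM for 6 h. At 18 h it was 3.52 and 4.40 in vehicle, 4.16 and 6.85 at 100 pM, and 8.12 and 15.7 at 10 nM. Cyclin D1 was thus the higher of the pair in every library, and at 18 h the 100 pM ratio overlapped vehicle.

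The ratio of CCNE2 to CCNE1 per kb was 1.92 and 2.49 in vehicle and 4.91 and 8.67 at 100 pM for 6 h, and at 10 nM it was 1.58 and 2.54, overlapping vehicle. At 18 h it was 1.55 and 2.21 in vehicle, 4.64 and 5.21 at 100 pM, and 3.57 and 4.91 at 10 nM. CDK4 exceeded CDK6 in every library, by 17.8 and 28.3 times at 10 nM for 6 h and by 149 and 175 times at 100 pM for 18 h, against 40.2 to 57.4 times in the vehicle libraries. The ratio of CDKN1B to CDKN1A was 1.65 to 2.37 in vehicle and 0.794 and 0.868 at 10 nM for 18 h, the only group in which CDKN1A was the higher of the pair. With 2 libraries in each group an exact permutation test of a ratio cannot reach 0.05, and none is given.

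**Figure D4:**
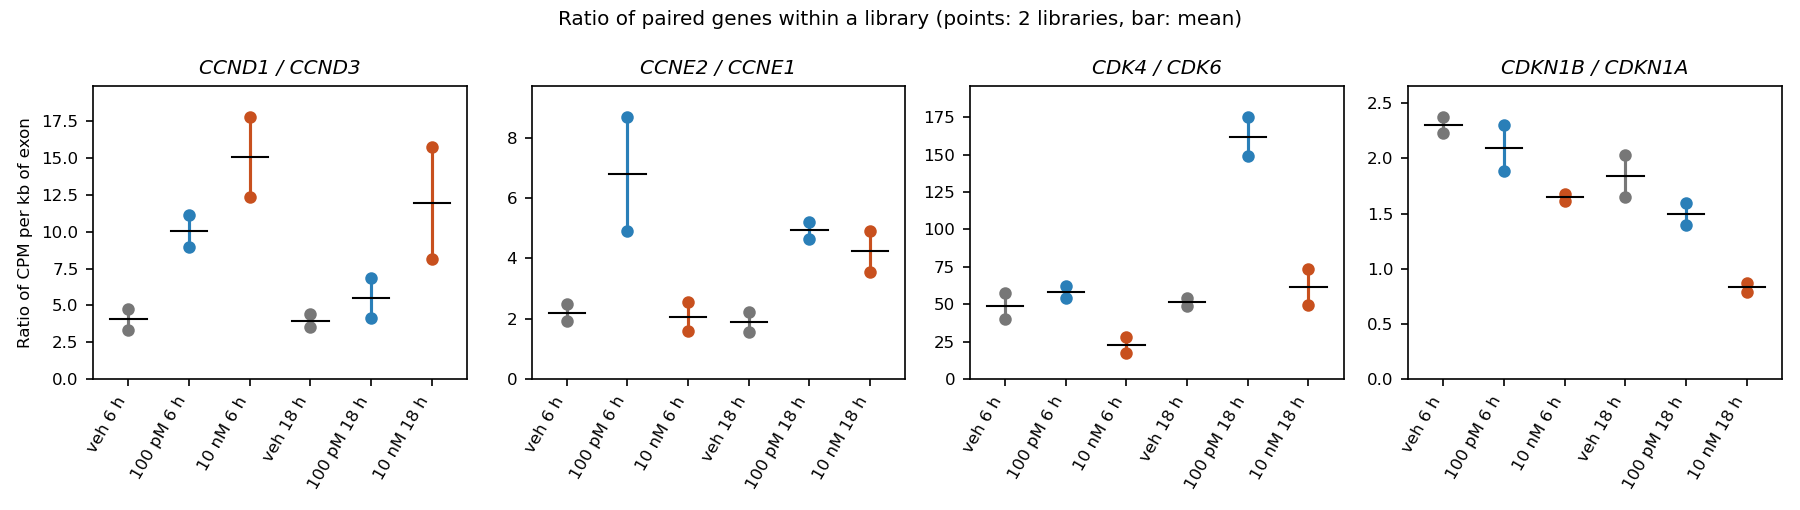
Each panel plots the ratio of a pair of genes per kb of exon (y axis) in the 2 libraries of each group (points, joined by a line; bars, means) across the 6 groups (x axis). The ratio of CDK4 to CDK6 is lowest at 10 nM for 6 h and highest at 100 pM for 18 h, and that of CDKN1B to CDKN1A falls below 1 in the 10 nM libraries of 18 h.

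Genes of S phase and mitosis were set beside the cyclin and kinase genes. Of the 19 listed, 11 rose and 0 fell at 100 pM for 18 h, with a median log2 fold change of 1.51, and 1 rose at 10 nM for 18 h (GINS2, part of the replicative helicase, 2.68 ± 0.36, edgeR adjusted p = 0.000597), with a median of 0.67. At 6 h 1 rose at 100 pM and 2 at 10 nM, with medians of 0.34 and 0.27. Of all tested genes, 6.57% rose at 100 pM and 19.0% at 10 nM for 18 h, and 2.88% and 22.6% for 6 h. With the 18 h libraries alone the 11 became 3, where 478 of all tested genes rose, against 911 with both times. Fewer of the 19 and fewer of all tested genes rose at 100 pM for 18 h without any 1 of the 4 libraries. At 10 nM for 18 h, more of the 19 but fewer of all tested genes rose without 10 nM 1. DESeq2 called 14 at 100 pM and 4 at 10 nM for 18 h, all higher. Between the doses at 18 h edgeR called 1 of the 19 lower at 10 nM (MCM5) and 0 higher. Of all tested genes, 11.4% were lower there and 14.8% higher. DESeq2 called 9 of the 19 lower, and a fit with a term for the replicate number 15, with 0 higher in either. At 6 h the rise at 100 pM was lost without any 1 of the 4 libraries, and 1 to 3 rose at 10 nM. Their summed level was 638 and 930 CPM in vehicle at 18 h, 1781 and 2843 CPM at 100 pM, and 847 and 1791 CPM at 10 nM. At 6 h it was 793 and 968 CPM in vehicle, 987 and 1297 CPM at 100 pM, and 897 and 1351 CPM at 10 nM. It was higher in replicate 3 in every group, as were CCND3, CCNE2, CDK2 and CDKN2C. Its part in the results for the cyclin and kinase genes was not tested. CDK6 ran the other way, lowest in the 100 pM libraries of 18 h.

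**Figure D5:**
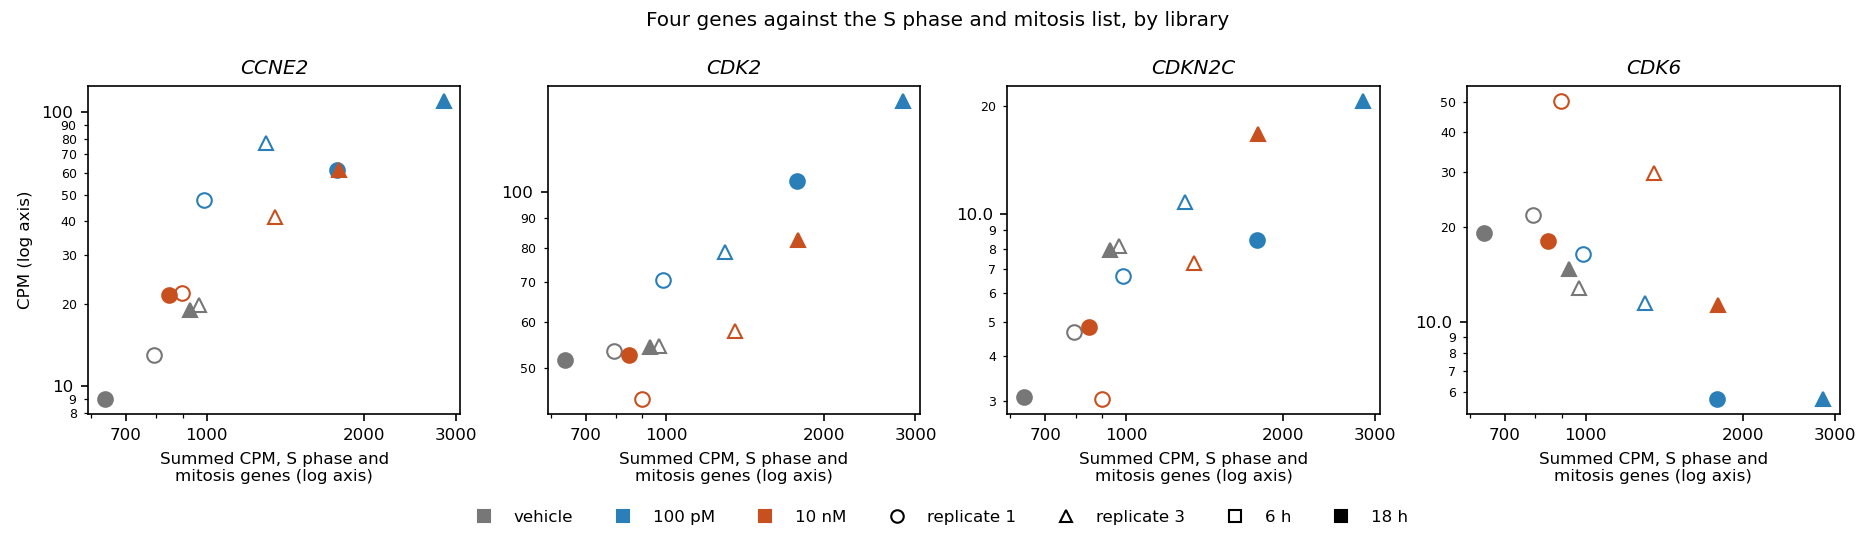
Each point is a library, with the summed CPM of the 19 S phase and mitosis genes on the x axis and the CPM of CCNE2, CDK2, CDKN2C or CDK6 on the y axis (both log axes; open, 6 h; filled, 18 h; circles, replicate 1; triangles, replicate 3). 100 pM 3 of 18 h is the highest library on the x axis, at 2843 CPM, and the highest for CCNE2, CDK2 and CDKN2C, and the 100 pM libraries of 18 h are the lowest for CDK6.

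A wider list of 30 G1 and G1/S genes was set beside the 10. CCND2 and CCNA1, other cyclin genes, had no count in any library, and 28 of the 30 were tested. At 6 h, 0 rose and 1 fell at 100 pM, and 4 rose and 7 fell at 10 nM, with median log2 fold changes of -0.04 and -0.15, where 3.48% and 42.0% of all tested genes changed. At 18 h, 5 rose and 2 fell at 100 pM and 3 rose and 1 fell at 10 nM, with medians of 0.13 and 0.09, where 10.5% and 34.1% of all tested genes changed. The 7 calls at 100 pM for 18 h became 0 with those libraries alone, where the calls among all tested genes went from 1450 to 653. With 1 library left out, fewer of the 28 and fewer of all tested genes were called. DESeq2 called 8 up and 2 down, where it called 1445 of all tested genes up and 786 down. The call at 6 h, CABLES1 (-0.49 ± 0.10), was lost without any 1 of its 4 libraries. CCNG2, an atypical cyclin linked to arrest, fell at 10 nM for 6 h (-1.34 ± 0.14, edgeR adjusted p = 0.000102), from 236 ± 18.2 to 93.2 ± 7.48 CPM (SD, n = 2). In the same comparison CABLES1, which binds CDKs, rose (0.97 ± 0.10), as did E2F4 (0.64 ± 0.08) and E2F3 (0.62 ± 0.09), transcription factors held by the retinoblastoma family. For 18 h CCNG2 was called higher at 100 pM, and CABLES1 lower at both doses. None of these 18 h calls was kept with the 18 h libraries alone. There CCNG2 was 0.65 at 100 pM, and CABLES1 was -0.37 at 100 pM and -0.31 at 10 nM. At 100 pM for 18 h E2F1 (2.51 ± 0.56), an activating E2F, and RBL1 (1.03 ± 0.21), a relative of the retinoblastoma gene, rose, with edgeR adjusted p 0.0173 to 0.0257. Both were lost without vehicle 1, vehicle 3 or 100 pM 3, and with the 18 h libraries alone, and E2F1 also without 100 pM 1 (E2F1 2.12 to 3.05, RBL1 0.77 to 1.07, adjusted p 0.0565 to 0.166).

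For the 4 genes with the smallest adjusted p against vehicle, the tested genes of most similar pattern were found by Pearson's r of log2 CPM over the 12 libraries, among 11010 genes whose average log2 CPM was 2 or more. These are descriptions without a test, and the libraries share groups and replicate numbers. CCND1 was most like SRM (r = 0.982), which makes spermidine, MBD2 (0.978), which binds methylated DNA, and DYNLL1 (0.977), a dynein light chain. CDKN1A was most like TMEM38B (0.978), an ion channel of the endoplasmic reticulum, CD44 (0.973), a hyaluronan receptor, and TXN (0.967), thioredoxin. CDKN1B was most like BCAS4 (0.963), TMEM165 (0.955) and MALT1 (0.954), a paracaspase. For CDK2 they were C4orf46 (0.979), CHEK1 (0.976), a checkpoint kinase of replication, and NRM (0.976). Among the 10 genes themselves, r was 0.871 for CCND1 and CDKN1B, 0.854 for CCND3 and CDK2, 0.848 for CCNE2 and CDK2, and -0.861 for CDK2 and CDK6.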

How the data were processed

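The authors deposited raw read counts for each gene symbol in 12 total RNA libraries. Per the submitters' processing notes, reads were aligned to hg19 with STAR, and DESeq2 was named without a role. The sources used here do not name the counter, annotation, strand setting or versions, so reads of overlapping or antisense genes cannot be told apart. From the counts on, R 4.3.3 and edgeR 4.0.16 were used: filterByExpr by group kept 13872 genes, TMM scaled the libraries, and 1 robust quasi-likelihood fit with a coefficient for each of the 6 groups (6 residual degrees of freedom) gave all comparisons. The script was tested on simulated data. Adjusted p is Benjamini-Hochberg over all genes tested, called under 0.05. Intervals are 95% and use edgeR's SE. DESeq2 1.42.0 was an alternative, with a replicate block, other size factors, no filter, 1 time alone and each library left out. All 10 genes were reported by rule. Of the other G1 genes, those named were called ones with the smallest adjusted p, up to 8 in a comparison, of which the text gives fewer. The members and lists were chosen with earlier results of these data known. All 12 columns were used.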

Additional observations from a re-analysis of the deposited data

Results flagged for a closer look

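The effect of 10 nM on CCND1 differed between the times: it was smaller at 18 h than at 6 h by -0.91 ± 0.23 on the log2 scale (edgeR adjusted p = 0.0414). CCND1 rose to 452 and 452 CPM at 6 h and to 242 and 257 CPM at 18 h, over vehicle levels of 87.4 to 103 CPM. The call was lost when any 1 of the 8 libraries was left out. Groups of 2 allow no test of a library that stands apart.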

How the results depend on the processing

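Of the 110 values (10 genes in 11 comparisons), all kept their call, or lack of one, with DESeq2's size factors in edgeR and without the low-count filter. Direction was compared only for values that at least 1 of the 2 fits called. DESeq2 kept 103 and added 7 calls. Fits to 1 time cover only the values of comparisons within a time, of which they kept 53, added 2 and lost 5. Leaving out 1 library lost more calls than it added. Counts of called genes among the 10 are given first, then among all tested genes, in this order: 100 pM and 10 nM against vehicle, then 10 nM against 100 pM, each at 6 h and 18 h. With 1 library left out, the called members ranged 1 to 1 and 2 to 5 at 100 pM, 3 to 4 and 3 to 4 at 10 nM, and 0 to 3 and 1 to 5 between doses. All called genes ranged 221 to 308 and 514 to 840 at 100 pM, and 3293 to 4257 and 2288 to 2917 between doses, against 483, 1450, 5127 and 3635 with all libraries. For 18 h against 6 h they ranged 9 to 25 at 100 pM (164 with all libraries) and 1839 to 2289 at 10 nM (3393). For the difference of effects between times they ranged 0 to 0 at 100 pM (2) and 480 to 877 at 10 nM (1462), with 0 to 0 of the 10 genes at 10 nM (1). A fit with fewer libraries has fewer residual degrees of freedom.

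DESeq2 called 2 of the 10 genes and 849 of all at 100 pM for 6 h, 2231 of all at 100 pM for 18 h, and 2 of all between times in vehicle. It called 3 and 855 between times at 100 pM, 108 of all for the 100 pM effect, and 2 and 2316 for the 10 nM effect. Its added calls included CCNE2 at 100 pM for 6 h (1.93, DESeq2 adjusted p = 0.00904), CCNE1 at 100 pM for 18 h (1.28, 0.00764) and CCNE2 at 10 nM for 18 h (1.57, 0.0133). With the 18 h libraries alone, 4 of the 10 genes and 653 of all were called at 100 pM. For the 100 pM effect between times, 1 gene was called with DESeq2's size factors and 5 without the filter. The cause of these differences was not tested.

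Replicate numbers 1 and 3 recur in each group, but the labels do not say what a number shares, and there are only 2. Deviations from the group means correlated across same-numbered libraries at r of 0.464 to 0.677 (median 0.558, 15 pairs of groups, across genes, which are not independent). A fit with the replicate number as a block (5 residual degrees of freedom) gave a common coefficient of variation of 0.0678 against 0.163, kept 78 of the 110 values and added 32 calls. With the block, the called members were 5 and the called genes 1696 at 100 pM for 6 h (1053 up and 643 down, against 399 and 84), and 4728 genes at 100 pM for 18 h (2365 up and 2363 down, against 911 and 539). At 6 h the members added at 100 pM were CCND3 (0.78), CCNE2 (1.93), CDKN1A (0.40) and CDKN1B (0.26), and CCNE2 was added at 10 nM (0.92) and, for 18 h, at 10 nM (1.51), with edgeR adjusted p 0.000103 to 0.0447. With the block, CCNE2, CDKN1A and CDKN1B thus rose in all 4 comparisons with vehicle, as CCND1 did. CDKN2C was called at 100 pM (1.41) and 10 nM (0.91) for 18 h, and CCNE1 at 100 pM for 18 h (1.25). Between doses, 4 members were called higher and 3 lower at 10 nM for 6 h, the lower ones CCNE2 (-1.01), CDK2 (-0.56) and CDKN2C (-0.85), and 2 higher and 5 lower for 18 h. The lower ones added for 18 h were CCND1 (-0.32), CCNE1 (-0.90) and CCNE2 (-1.13). CDK4 was called between times at 100 pM (0.21), and CDK6 and CDKN1A had effects that differed between times at both doses. Of the S phase and mitosis genes, 16 rose at 100 pM and 12 at 10 nM for 18 h, and 6 at 100 pM for 6 h. Of all tested genes, 2365, 3978 and 1053 rose in these comparisons. The called members and genes were 5 and 7767 at 10 nM for 18 h, 7 and 8231 between doses at 6 h, and 7 and 6958 at 18 h. Between times they were 4 genes in vehicle, 7 and 3076 at 100 pM, and 7 and 6819 at 10 nM. With the block, the effect differed between times in 2 and 777 at 100 pM and 4 and 4863 at 10 nM.

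Depth was 34204970 to 41373890 counts per library. The 2 libraries per group and the low counts of CCNE1 and CDKN2C limit the precision.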
